A study of Drosophila melanogaster with 12 samples.

Results

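The antennae of amos mutant adults were compared with the larval antennal discs of the same genotype, the epithelia from which antennae form, to describe which adult antennal programs appeared during development without amos function. Samples were chosen by their labels alone, 3 libraries of amos mutant adult antenna and 3 of amos mutant larval antennal disc, and these are 6 of the 12 libraries in the series. The remaining 6 libraries came from wild-type (w1118) animals, 3 of adult antenna and 3 of larval antennal disc, and are given as the control beside the mutant values. All mutant animals carried amos3, and both genotypes were raised at 22°C. Adults were 0 to 4 h old and of both sexes, and about 300 antennae per sample were separated from frozen animals with a 20-μm sieve. Discs came from larvae of the third instar of both sexes, and 50 antennal discs per sample were cut by hand from the eye discs. Each library pools many animals and every cell type of the organ, so fewer cells of a type and less RNA per cell cannot be told apart in any result given here. The mutant and the control are separate stocks, so a difference between the stocks at another gene cannot be told apart from the loss of amos.

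Amos and its relative Atonal (Ato) are proneural transcription factors that select sensory organ precursors in the larval antennal disc. Lineages selected by Amos build the trichoid, intermediate and basiconic sensilla, whose neurons use odorant receptors (Ors) together with the co-receptor Orco. Lineages selected by Ato build the coeloconic sensilla, the sacculus and the hearing organ of the antenna, Johnston's organ, and most olfactory neurons of the coeloconic sensilla use ionotropic receptors (Irs). Support cells of each sensillum make the hair, the socket and the lymph, into which odorant-binding proteins (Obps) and odorant-degrading enzymes are secreted. The disc itself is a proliferating, patterned epithelium with few differentiated neurons.

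The amos adult libraries held 36396746 to 50252338 reads on genes and the amos disc libraries 39247300 to 43984887. The control libraries held 25150198 to 27661261 reads. Levels are given as CPM, where 1 CPM is 1 read in every 1000000 that fell on genes. The floor of 3 reads corresponds to 0.0597 to 0.0824 CPM in the amos libraries. The labelled tissues were checked against marker genes. The 6 antennal disc markers (Dll, hth, ss, ct, dan and danr) summed to 1360 to 1534 CPM in the amos discs, while the 5 eye disc markers summed to 122 to 161 CPM there, against 242 to 323 CPM in the control discs. In amos adults, the matched photoreceptor markers summed to 1.02 to 1.19 CPM, and the 5 Ors that mark the maxillary palp, a smaller olfactory organ of the head, to 11.4 to 24.9 CPM, against 32.9 to 54.3 CPM in the control adults. The 4 muscle markers summed to 100.3 to 224 CPM in amos adults, 50.4 to 65.1 CPM in amos discs, 4.399 to 93 CPM in control adults and 93.7 to 802 CPM in the control discs, with replicate 5 of the control discs the highest. Fat body genes were highest in replicate 2 of the control discs, at 5157 CPM in sum. Genes of the mitochondrial genome set the genotypes apart, summing to 1275 to 1789 CPM in amos adults and 583 to 786 CPM in amos discs, against 11619 to 14460 CPM and 5597 to 10332 CPM in the controls. Their part in the differences between genotypes was not tested. The amos gene itself had no read in 5 of the 6 amos libraries and 3 reads in the sixth, and at most 0.0522 CPM on average in a control group, and the genotype was therefore not checked from it.

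Most genes differed between the stages. Of 9985 genes tested in the amos samples with the quasi-likelihood test of edgeR, 4375 (43.8%) were higher in adults and 4171 (41.8%) lower at an adjusted p under 0.05. With a change over 4-fold as well, 2756 (27.6%) were higher and 1343 (13.5%) lower. These percentages are the background for every count given below. The median log2 fold change over all tested genes was 0.050, and -0.28 with scaling to total counts alone, so the log2 fold changes lie above the log2 ratio of the CPM values by about that difference. In the control samples, 4216 of 9770 genes rose (43.2%) and 4242 fell (43.4%). Of the genes that rose in amos samples, 84.9% also rose in the controls, and these were 88.1% of the genes that rose in the controls. The bar plot of gene groups shows the share of members that rose or fell.

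**Figure D1:**
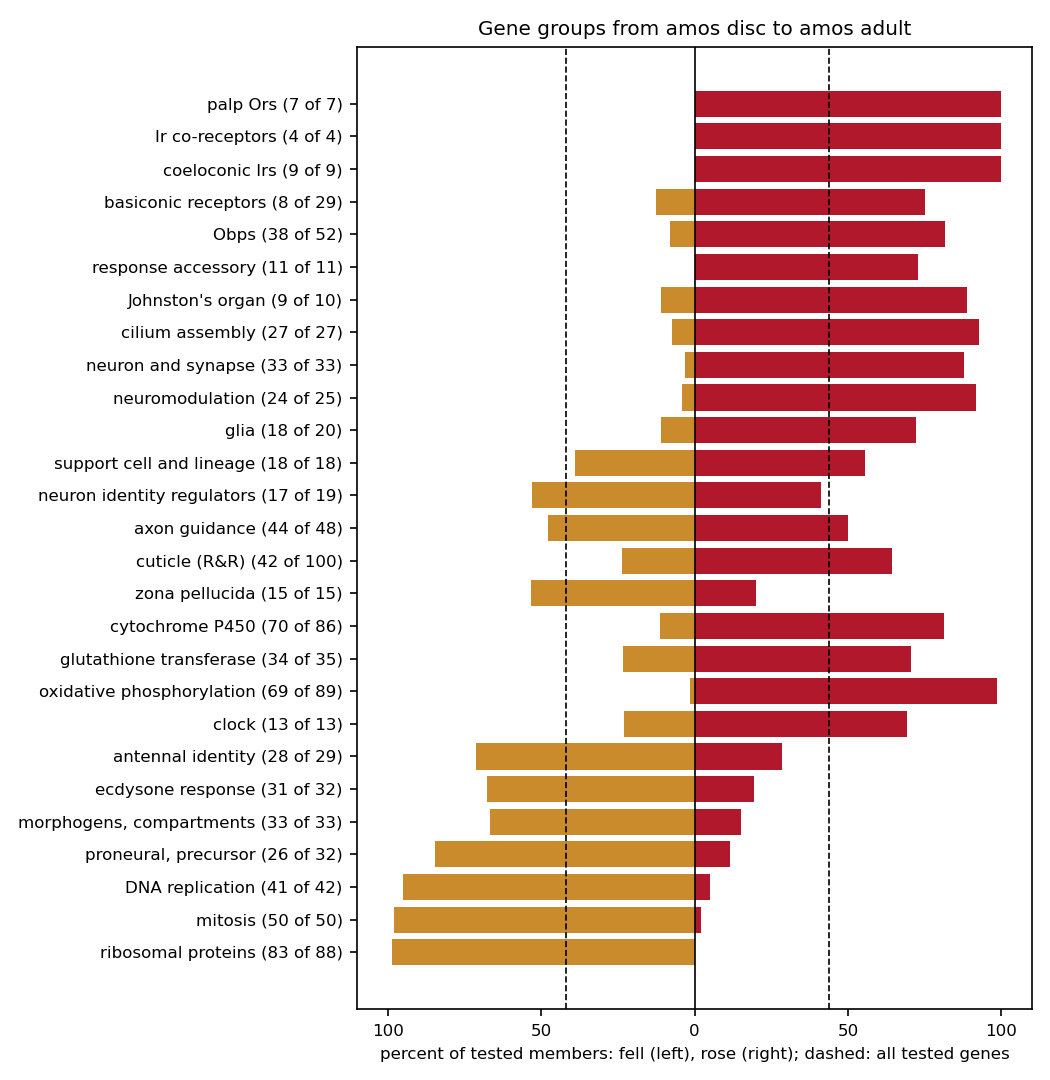
Percent of the tested members of each gene group that rose (right) or fell (left) from amos disc to amos adult at an adjusted p under 0.05 (edgeR), with the number of tested members of all matched members beside each name. Dashed lines mark the same percent over all 9985 tested genes, 43.8% and 41.8%. Groups of receptors, cilia and synapses lie to the right, and groups of cell division, patterning and ribosomal genes to the left.

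Receptors of the Or subsystem were low or undetected in amos adult antennae. The list of trichoid and intermediate Ors has 12 matched members, of which only 3 had enough reads to be tested in the amos samples, and together they reached 3.02, 3.68 and 1.31 CPM in the amos adult libraries 1, 2 and 3, against 313 to 329 CPM in the control adults. The same 12 genes all rose in the control samples. Or47b, a trichoid receptor of fly-derived lipids, was at 0.302, 0.756 and 0.262 CPM in the amos adults, had no read in any amos disc and was at 131 ± 5.77 CPM in control adults (mean ± SD, n = 3). Or67d, the receptor of the male pheromone cVA, had reads in only one amos adult library (0, 0.179 and 0 CPM) and was at 42.1 ± 4.62 CPM in the control. Or65c and Or47b were the members past the test in the amos samples, and Or65c was at 2.01, 1.41 and 0.681 CPM in amos adults. Or2a did not pass it, at 0.412, 0.358 and 0.157 CPM in amos adults and 0.382, 0.364 and 0.232 CPM in amos discs, while its control level rose from 0.783 to 10.8 ± 0.186 CPM. The change of Or2a between stages was smaller in amos than in control samples by edgeR's interaction test (log2 interaction -3.82, adjusted p = 2.7e-04), as was that of Or65a (-9.87, adjusted p = 0.0052), a call that was lost without replicate 2 of the amos discs (adjusted p = 0.14). For the other members the interaction did not pass the test, and their adult levels stand side by side without one.

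Basiconic receptors gave the same picture with a few exceptions. Of 29 matched genes, 8 could be tested, 6 rose and 1 fell, and their sum was 31.4, 44.5 and 33.4 CPM in the amos adult libraries against 1440 to 1540 CPM in control adults. Or42b, a food-odor receptor, was at 0, 0.876 and 0.0262 CPM in amos adults and 189 ± 10.5 CPM in the control. The carbon dioxide receptors Gr21a and Gr63a were at 0.192, 0.358 and 0.419 and at 0.165, 0.577 and 0.0524 CPM, against 50.02 ± 4.23 and 111 ± 4.94 CPM. Library 2 of the amos adults was the highest for 33 of the 40 trichoid, intermediate and basiconic receptor genes with reads in amos adults, and held 2.64% of the summed control level, against 1.89% and 1.904% in libraries 1 and 3. The sums behind these shares were 34.4, 48.2 and 34.7 CPM in libraries 1, 2 and 3. Gr10a alone held 16.6, 17.8 and 18.5 CPM of them. Without library 2, 6 basiconic and 2 trichoid or intermediate genes rose, as with it, and Or67a joined the genes that fell (log2 fold change -4.61, adjusted p = 0.0044). The cause of the higher values of library 2 was not tested. Calls among such low counts also follow the filter, since 21 basiconic and 6 trichoid or intermediate genes rose in 1 fit over all 12 samples, where more of them were tested.

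Of the basiconic genes that rose, Gr10a and Or10a had the highest mutant levels and were similar in the 3 libraries. Gr10a and Or10a, which are expressed in one neuron class of the large basiconic sensilla, were at 16.6, 17.8 and 18.5 CPM and 5.17, 6.73 and 8.04 CPM in amos adults. Gr10a had 3 reads in all amos discs together, a ratio of adult to disc of 744 (95% counting interval 254 to 3612), and the control adults held 96.3 ± 7.89 CPM. For Or10a the ratio was 422 (95% counting interval 116 to 3487), with 26.7 ± 2.89 CPM in control adults. Both were present in every mutant adult library, below every control library. The annotation used gives both genes the same position and strand, so their rises may not be separate observations. The other genes that rose were Or49b at 0.495, 0.716 and 0.576 CPM, Or59b at 1.21, 3.005 and 0.288 CPM, Or85b at 0.302, 0.617 and 0.367 CPM and Or92a at 0.385, 1.87 and 0.5501 CPM in amos adults. In control adults these were at 17.8, 136, 38.2 and 195 CPM on average. Or43b went the other way. It was at 9.68, 10.1 and 9.81 CPM in the amos discs and 5.495, 5.79 and 3.98 CPM in the amos adults (log2 fold change -0.62, SE 0.18, adjusted p = 0.014), while in the control it rose from 10.2 to 96.6 ± 6.598 CPM, and the interaction was -4.16, adjusted p = 8.1e-07. The other members with a smaller change in amos by that test were Or67a (-7.17, adjusted p = 8.5e-05), Or47a (-6.46, adjusted p = 0.0019), Or7a (-5.99, adjusted p = 0.011) and Or85b (-5.17, adjusted p = 0.02). The call was lost for Or7a without replicate 2 of the amos discs (adjusted p = 0.12) and for Or85b without replicate 3 (adjusted p = 0.33).

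Orco and the coeloconic receptor Or35a both appeared in mutant antennae. Orco, which pairs with every Or, was at 95.5, 115 and 57.5 CPM in amos adults and 0.0255, 0.0455 and 0.0232 CPM in amos discs (log2 fold change 11.65, SE 0.44, adjusted p = 2.2e-07), with no overlap, and at 2929 ± 168 CPM in control adults. The control mean was 32.8-fold the amos mean. Or35a, the Or of an Ato-dependent coeloconic sensillum, was at 95.9, 93.2 and 90.2 CPM in amos adults with 3 reads in all amos discs, a ratio of 3920 (95% counting interval 1341 to 19012), and at 38.7 ± 1.12 CPM in control adults. Its mutant adult libraries all lay above its control adult libraries. The 7 Ors of the maxillary palp all rose in amos samples, against 43.8% of all genes, and their sum was 26.4, 27.8 and 12.3 CPM in the amos adults and 35.1 to 60.3 CPM in the controls. Or46a was the palp receptor with the largest rise, at 6.92, 7.62 and 2.67 CPM against no read in the discs, at least 242-fold higher. This bound and those that follow set 3 reads over the 3 libraries of a group in place of 0. Orco itself serves palp neurons too, and the share of its reads that came from palps was not tested.

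**Figure D2:**
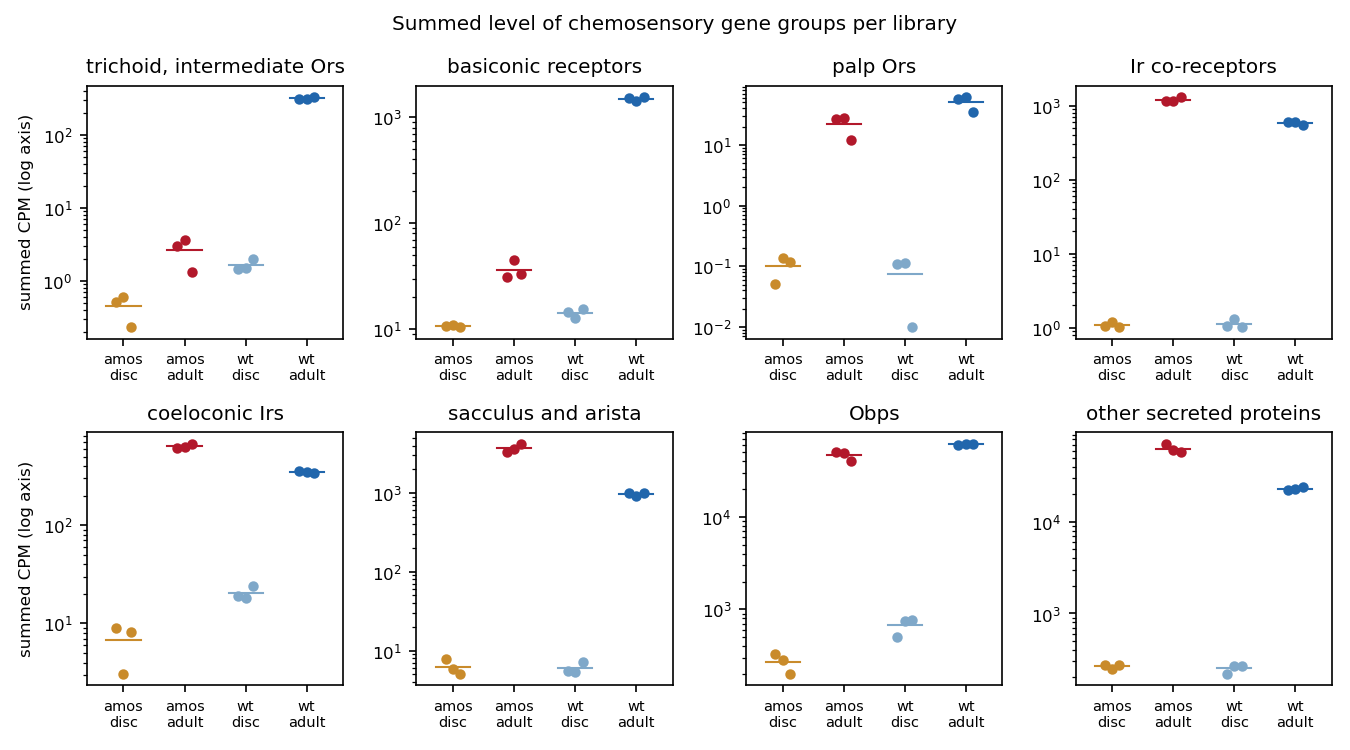
Summed level (CPM, log axis) of 8 groups of chemosensory genes in each library, with 1 point per library (n = 3 per group) for amos disc, amos adult, wild-type disc and wild-type adult and a line at the mean. A library with no read is drawn at 0.01 CPM. Trichoid, intermediate and basiconic receptors of amos adults lie far below those of wild-type adults, and the coeloconic Irs, the Ir co-receptors and the sacculus and arista group lie above them.

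The Ir subsystem appeared in amos antennae. All 4 Ir co-receptors rose (43.8% of all genes did), and their sum went from 1.02 to 1.18 CPM in amos discs to 1142 to 1286 CPM in amos adults, with 549.7 to 600.1 CPM in control adults. Ir25a, the most widely shared co-receptor, was at 0.178, 0.205 and 0.0696 CPM in the discs and 341, 313 and 357 CPM in the adults (log2 fold change 11.43, SE 0.24, adjusted p = 1.9e-08). Ir8a, the co-receptor of acid-sensing neurons, was at 0.204, 0.0682 and 0.186 CPM and 343, 348 and 456 CPM (log2 fold change 11.62, SE 0.31, adjusted p = 4.8e-08). Ir76b, a co-receptor of amine sensing, reached 434, 478 and 450.3 CPM (log2 fold change 9.57, SE 0.14, adjusted p = 9.4e-09). Ir93a, which acts with Ir25a in temperature and humidity sensing, reached 23.9, 23.9 and 22.9 CPM (log2 fold change 9.44, SE 0.35, adjusted p = 2.0e-07). None of these 4 genes overlapped between stages, as was the case for 88.6% of all genes tested. The rise was larger in amos than in control samples for Ir25a (log2 interaction 1.47, adjusted p = 0.013) and Ir76b (1.22, adjusted p = 0.0053). For Ir25a that call was lost without replicate 5 of the control discs (adjusted p = 0.1) or replicate 3 of the amos discs (adjusted p = 0.087).

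All 9 tuning Irs of the coeloconic sensilla rose as well, and their summed level was 614, 619 and 671 CPM in the amos adult libraries, above the 339 to 354 CPM of the control adults. Ir75a, an acetic acid receptor, was at 224, 197 and 204 CPM in amos adults and 0.357, 0.205 and 0.0928 CPM in amos discs (log2 fold change 10.24, SE 0.28, adjusted p = 5.2e-08). Ir84a, a receptor of phenylacetic acid linked to male courtship, was at 66.7, 61.03 and 70.5 CPM and 0.05096, 0.0455 and 0.162 CPM (log2 fold change 9.85, SE 0.27, adjusted p = 5.2e-08), with 13.7 ± 0.547 CPM in control adults. Every mutant adult library lay above every control adult library for Ir84a. Ir31a was at 80.9, 93.5 and 96.8 CPM against 0.102, 0.0682 and 0.116 CPM (log2 fold change 10.18, SE 0.20, adjusted p = 1.5e-08), and its control moved from 0.415 to 30.5 ± 1.45 CPM. Ir92a, an amine receptor of the ac1 sensillum, reached 36.6, 40.8 and 48.3 CPM (log2 fold change 10.27, SE 0.29, adjusted p = 6.0e-08), and Ir75b reached 49.2, 61.4 and 79.6 CPM, a ratio to its disc level of 2669 (95% counting interval 913 to 12947). Ir75c had no read in any amos disc and 17.97, 30.2 and 53.3 CPM in the adults, at least 1424-fold higher, and Ir75d had 1 read in the discs and 16.4, 22.6 and 26.2 CPM in the adults. The adult libraries of Ir75c spread widely, library 3 being the highest, but lay above the control mean of 11.8 CPM. Ir76a, a receptor of amines, had the most disc reads of the list. It was at 8.26, 2.55 and 7.65 CPM in the amos discs and 107, 100.2 and 80.2 CPM in the adults (log2 fold change 4.29, SE 0.42, adjusted p = 3.5e-05). Ir41a, also a receptor of amines, was at 0.127, 0.159 and 0.116 CPM and 15.1, 12.5 and 11.6 CPM (log2 fold change 6.90, SE 0.24, adjusted p = 1.6e-07). The rise was larger in amos samples for 4 of these 9 genes, against a more positive change in 14.2% of all genes tested for the interaction. They were Ir31a (log2 interaction 3.69, adjusted p = 1.5e-05), Ir41a (3.86, adjusted p = 4.5e-05), Ir76a (2.71, adjusted p = 0.002) and Ir84a (2.46, adjusted p = 0.011), and no member had a called smaller rise.

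Genes of the sacculus and arista behaved alike apart from Ir68a. Amt, an ammonium transporter that serves ammonia sensing, was at 1.73, 1.27 and 1.32 CPM in the amos discs and 2732, 3114 and 3607 CPM in the adults (log2 fold change 11.43, SE 0.23, adjusted p = 1.8e-08), with 723 ± 53.3 CPM in control adults. Ir64a, an acid sensor of the sacculus, reached 267, 254 and 327 CPM (log2 fold change 11.18, SE 0.24, adjusted p = 2.3e-08), Ir21a, a cooling receptor of the arista, 134, 136 and 124 CPM (log2 fold change 11.28, SE 0.22, adjusted p = 1.5e-08), and Gr28b, a warmth receptor, 29.1, 24.7 and 25.02 CPM (log2 fold change 8.64, SE 0.43, adjusted p = 8.6e-07). Ir40a, a dry-air receptor, had a higher disc level than these, 3.08, 2.27 and 1.76 CPM, and reached 128, 124 and 112 CPM (log2 fold change 6.01, SE 0.20, adjusted p = 1.3e-07), a smaller rise than in the control (log2 interaction -1.94, adjusted p = 5.7e-04). Ir68a, a receptor of moist air, stood at 2.599, 2.001 and 1.72 CPM in the discs and 1.29, 1.43 and 0.734 CPM in the adults and did not pass the test (log2 fold change -0.53, SE 0.36, adjusted p = 0.19). In total 5 of 6 tested members rose, and the remaining matched member, brv1, had no read in any amos library. Among the rising members every adult library lay above every disc library. The stages did not overlap, in either direction, for 88.6% of all genes tested.

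Obps divided by gene rather than as a family. Of 52 matched genes, 38 were tested, 31 rose and 3 fell, and the median log2 fold change was 8.67 against 0.050 for all genes. Obp19d, which is expressed by support cells beneath several sensillum types, was at 31291, 32520 and 24410 CPM in amos adults (log2 fold change 10.34, SE 0.19, adjusted p = 1.4e-08) and 19423 ± 688 CPM in the control. Obp84a and Obp59a, binding proteins of coeloconic sensilla and the sacculus, reached 5212, 4305 and 4056 CPM (log2 fold change 11.58, SE 0.21, adjusted p = 1.3e-08) and 5498, 4938 and 5333 CPM (log2 fold change 10.48, SE 0.13, adjusted p = 9.4e-09), against control means of 1799 and 2247 CPM. Obp56d reached 6076, 5310 and 4396 CPM (log2 fold change 9.68, SE 0.41, adjusted p = 3.8e-07) against 766 ± 52.4 CPM. These were present in mutant antennae at or above the control level. Obps of trichoid and basiconic sensilla were not. Obp83a (also called OS-F) was at 8.13, 91.00 and 10.7 CPM in amos adults, with library 2 apart from the other two, and at 10413 ± 282 CPM in the control. Obp83b (OS-E) showed the same split at 6.704, 55.02 and 5.42 CPM against 6019 ± 291 CPM, and lush, the Obp of cVA detection, was even across libraries at 50.00, 46.6 and 40.00 CPM against 3662 ± 203 CPM. Obp28a lay between, at 499.9, 567 and 471 CPM (log2 fold change 8.85, SE 0.23, adjusted p = 4.8e-08) against 9445 ± 298 CPM. Each still rose over the amos discs, in which Obp83a had 1 read and lush 2 reads, with ratios of 5343 (95% counting interval 958 to 211070) and 2879 (95% counting interval 797 to 23778).

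Obp99a, Obp99b and Obp44a were the members that fell. Obp99a went from 171, 169.6 and 103 to 0.275, 0.199 and 0.157 CPM (log2 fold change -9.12, SE 0.32, adjusted p = 1.4e-07). Obp99b went from 41.1, 31.2 and 34.7 to 0.714, 0.756 and 0.105 CPM (log2 fold change -5.72, SE 0.46, adjusted p = 1.1e-05). Obp44a went from 53.5, 37.2 and 6.22 to 6.95, 6.96 and 7.99 CPM (log2 fold change -1.80, SE 0.65, adjusted p = 0.032). The groups of Obp44a overlapped, since disc library 3 was as low as the adults, and its call was lost without any of the 3 adult libraries or disc library 1 or 2 (adjusted p from 0.073 to 0.11). The rise was larger in amos for Obp56a (log2 interaction 3.59, adjusted p = 0.0035), Obp56e (4.74, adjusted p = 0.0049) and Obp18a (3.36, adjusted p = 0.0078), and no Obp had a called smaller one.

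Other secreted antennal proteins rose to high levels. Os-C went from 112, 102 and 111 to 34561, 30515 and 27097 CPM (log2 fold change 8.48, SE 0.16, adjusted p = 1.3e-08). a10, a chemosensory protein, went from 133, 123 and 138 to 26068, 23044 and 23687 CPM (log2 fold change 7.86, SE 0.14, adjusted p = 1.2e-08). a5, a phosphatidylethanolamine-binding protein family member, went from 2.803, 2.39 and 2.505 to 8286, 6297 and 5854 CPM (log2 fold change 11.71, SE 0.22, adjusted p = 1.3e-08). Together the 7 genes of this list held 57520 to 70963 CPM in amos adults and 22322 to 23771 CPM in the controls, and 6 of the 7 rose. The rise of Os-C and a10 was larger in amos (log2 interaction 1.14, adjusted p = 0.0014 and 1.70, adjusted p = 5.1e-05). CheA7a and CheB42a, members of families of secreted contact-chemosensory proteins, and the peptide gene Nplp3 also rose, to adult means of 276, 46.2 and 998 CPM. Phk-3, a relative of a10, fell from 22.9, 20.2 and 20.7 to 5.41, 5.33 and 4.43 CPM (log2 fold change -1.74, SE 0.13, adjusted p = 8.6e-06).

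Accessory proteins of odor and pheromone responses differed from each other. Snmp1, the CD36 relative required for cVA detection, was at 0.2803, 0.318 and 0.348 CPM in amos discs and 886, 847 and 817 CPM in amos adults (log2 fold change 11.71, SE 0.13, adjusted p = 9.4e-09), with 2047 ± 16.2 CPM in control adults. Its control discs averaged 1.39 CPM, above the 0.315 CPM of the amos discs. Its rise was larger in amos (log2 interaction 0.89, adjusted p = 0.018), although its amos adults lay below the control adults. That call was lost without replicate 1 or 2 of the control discs or replicate 1 or 2 of the amos discs (adjusted p from 0.055 to 0.073). ATP8B, a lipid flippase needed by Or neurons, rose from 26.1, 32.4 and 23.01 to 86.7, 124 and 125 CPM (log2 fold change 2.38, SE 0.19, adjusted p = 1.3e-05), a smaller rise than in the control, where it reached 433 ± 16.1 CPM (log2 interaction -2.61, adjusted p = 6.3e-05). Snmp2, a Snmp1 relative of support cells, rose to 31.7, 20.9 and 16.01 CPM (log2 fold change 3.92, SE 0.36, adjusted p = 2.3e-05), also less than in the control (log2 interaction -2.20, adjusted p = 0.0082). Among the esterases of the antenna, Est-6 reached 5761, 5533 and 6103 CPM (log2 fold change 11.52, SE 0.18, adjusted p = 9.5e-09) against 438 ± 27.3 CPM in control adults, with a larger rise (log2 interaction 1.39, adjusted p = 0.013) that was not called without replicate 5 of the control discs (adjusted p = 0.13), and Jhedup reached 130.5, 177 and 157 CPM against 13245 ± 285 CPM. Jhedup had 5 reads in all amos discs, and rose (log2 fold change 12.15, SE 0.34, adjusted p = 5.7e-08), with no call of the interaction (1.34, adjusted p = 0.11). Osi8, a member of the Osiris family, was at 19.97, 14.1 and 21.3 CPM in amos adults with 1 read in the amos discs, a ratio of 2279 (95% counting interval 409 to 90039), and at 214 ± 4.55 CPM in control adults. The G protein subunit Ggamma1 rose (log2 fold change 1.15, SE 0.099, adjusted p = 1.6e-05), and Gbeta13F, Arr1 and Arr2 did not pass the test. In all, 8 of 11 rose.

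The disc levels of most of these genes were small shares of their adult levels. Over the 28 receptor, Obp and other chemosensory genes with at least 100 CPM in amos adults, the median amos disc level was 926 CPM for every 1000000 CPM in the adult, and 15 of them lay under 1000 CPM for every 1000000. The values ran from 247 to 1.34e+06, the highest being that of Gbeta13F, which was higher in amos discs than in amos adults. In the control the median on this scale was 713 over 39 genes. Whether these reads come from disc cells was not tested, and the size of the largest fold changes depends on them.

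**Figure D3:**
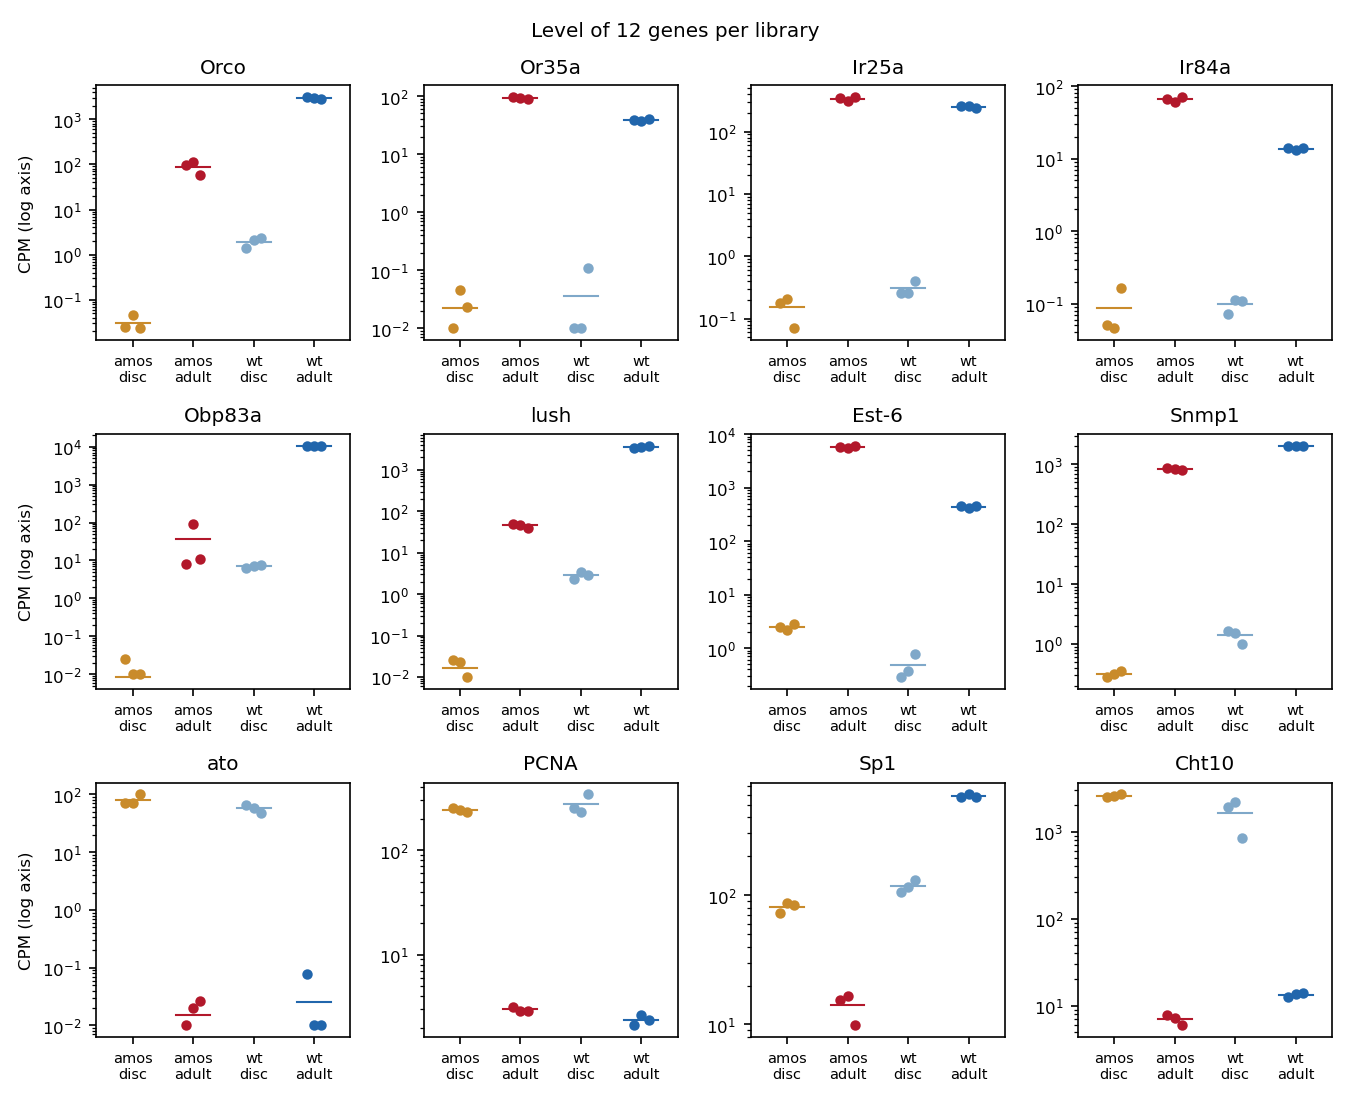
CPM (log axis) of 12 genes in every library, with 1 point per library and the group mean as a line, for amos disc, amos adult, wild-type disc and wild-type adult (n = 3 each). Libraries with no read are drawn at 0.01 CPM. Orco, lush and Obp83a rise in amos but stay far below the control adults, Or35a, Ir84a and Est-6 rise above them, and Sp1 falls in amos and rises in the control.

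Neuronal genes appeared broadly. Of 33 pan-neuronal and synaptic genes, 29 rose and 1 fell, with a median log2 fold change of 5.78. nSyb, a vesicle protein of every synapse, went from 5.300, 3.96 and 3.13 to 346, 420.3 and 394 CPM (log2 fold change 6.89, SE 0.23, adjusted p = 1.1e-07). Syt1, the calcium sensor of release, went from 3.39, 2.27 and 1.25 to 196, 234 and 237 CPM (log2 fold change 6.93, SE 0.35, adjusted p = 8.6e-07). cpx, complexin, went from 6.24, 2.68 and 2.11 to 812, 1011 and 964 CPM (log2 fold change 8.32, SE 0.46, adjusted p = 1.4e-06). nrv3, a neuronal sodium pump subunit, reached 928, 909 and 1168 CPM (log2 fold change 9.11, SE 0.39, adjusted p = 3.8e-07). The control adults held a higher mean of each of these 4 genes, for example 641 ± 6.92 CPM of nSyb and 419.9 ± 19.4 CPM of Syt1, and the summed list was at 6257 to 7461 CPM in amos adults and 9553 to 10067 CPM in control adults. The rise was larger in amos for the vesicular amine transporter Vmat (log2 interaction 2.50, adjusted p = 0.0048) and smaller for elav (-0.86, adjusted p = 0.0057), the pan-neuronal RNA-binding protein. Syp, an RNA-binding protein, was the member that fell (log2 fold change -2.25, SE 0.50, adjusted p = 0.0034).

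Genes of neuromodulation, receptors and peptides that tune neurons, rose too, 22 of 24 tested, over 25 matched. GABA-B-R1, which mediates presynaptic inhibition of olfactory neurons, reached 111, 125 and 124 CPM (log2 fold change 8.62, SE 0.28, adjusted p = 1.1e-07) against 335 ± 7.76 CPM in control adults, and sNPF, a peptide released by olfactory neurons, 221, 219 and 305 CPM (log2 fold change 7.46, SE 0.69, adjusted p = 2.6e-05) against 259 ± 7.48 CPM. Oamb, an octopamine receptor, reached 40.4, 43.98 and 27.6 CPM against 147 ± 14.1 CPM in control adults. The tachykinin receptor gene TkR86C rose less than in the control (log2 interaction -3.82, adjusted p = 0.0011).

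Regulators of olfactory neuron identity did not move together, 7 of 17 rising and 9 falling. Among those that rose, acj6, a POU factor that sets Or choice, went from 0.102, 0.136 and 0.139 to 18.00, 27.5 and 27.2 CPM (log2 fold change 7.88, SE 0.30, adjusted p = 2.2e-07). Fer1, a bHLH factor, went from 0.178, 0.114 and 0.0696 to 39.2, 42.4 and 37.4 CPM (log2 fold change 8.68, SE 0.21, adjusted p = 3.7e-08). onecut went from 6.42, 2.96 and 0.904 to 79.95, 104 and 66.6 CPM (log2 fold change 4.95, SE 0.60, adjusted p = 1.2e-04). Eip93F went from 1.43, 0.273 and 0.116 to 75.8, 95.2 and 147 CPM (log2 fold change 7.83, SE 0.70, adjusted p = 2.1e-05). Fer1 and acj6 were at 168 ± 5.07 and 41.04 ± 2.79 CPM in control adults, above each amos adult library, and their interaction did not pass the test (-0.89, adjusted p = 0.2 and -0.77, adjusted p = 0.35). The interaction was negative for pdm3 (-0.92, adjusted p = 0.0035), another POU factor, which stood at 63.2, 74.1 and 60.5 CPM in amos adults and 64.2, 85.98 and 79.9 CPM in amos discs, for inv (-0.80, adjusted p = 9.3e-04), a homeobox gene, and for the homeobox gene unpg (-6.63, adjusted p = 4.2e-04), at 0.192, 0.179 and 0.2096 CPM in amos adults and 18.3 ± 1.504 CPM in control adults. hh and ci, of the Hedgehog pathway, fell (log2 fold change -7.94, SE 0.26, adjusted p = 1.2e-07 for hh), and hh went from 72.03, 83.2 and 86.2 to 0.4396, 0.159 and 0.2096 CPM.

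Sensory neurons of the antenna end in cilia that carry the receptors, built by intraflagellar transport. Of 27 tested genes of cilium assembly, 25 rose, while Oseg4 (log2 fold change -1.28, SE 0.13, adjusted p = 3.8e-05) and unc (log2 fold change -4.36, SE 0.55, adjusted p = 1.6e-04) fell. Oseg2 went from 0.05096, 0.0682 and 0.0464 to 52.04, 55.8 and 55.8 CPM (log2 fold change 10.19, SE 0.16, adjusted p = 9.7e-09). nompB, a transport particle subunit, went from 0.0764, 0.0227 and 0 to 68.4, 68.1 and 57.7 CPM, and BBS9, of the complex that sorts membrane proteins into cilia, from 0.127, 0.0455 and 0.232 to 188, 174 and 138 CPM (log2 fold change 10.57, SE 0.32, adjusted p = 8.0e-08). The summed list was at 1632 to 1694 CPM in amos adults and 2125 to 2201 CPM in control adults. Klp68D, a kinesin-II motor subunit, rose from 12.8, 12.03 and 11.1 to 284, 319 and 365 CPM (log2 fold change 5.09, SE 0.15, adjusted p = 6.6e-08) and more than in the control (log2 interaction 0.66, adjusted p = 0.0098), as did IFT52 (1.47, adjusted p = 0.0017), and the interaction of Oseg4 was negative (-0.89, adjusted p = 0.0036).

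Most genes of the Johnston's organ list rose in mutant antennae, though not all are particular to the organ. In the paper, nompA labels sheath (thecogen) cells of the antenna. The 3 markers nan, iav and nompC summed to 11 to 18 CPM in amos adults and 0.523 to 0.815 CPM in amos discs. Of 9 tested members 8 rose, and ct, a homeobox gene of the organ that is also active in the disc, fell (log2 fold change -1.17, SE 0.24, adjusted p = 0.0024). nompC, a mechanotransduction channel, was at 0.662, 0.387 and 0.255 CPM in discs and 15.6, 13.7 and 9.902 CPM in adults (log2 fold change 5.24, SE 0.37, adjusted p = 5.2e-06), and nompA, a matrix protein of the dendritic cap, at 0.408, 0.205 and 0.696 and 52.2, 40.7 and 40.7 CPM (log2 fold change 6.99, SE 0.33, adjusted p = 6.7e-07). eys, which keeps the lymph space of the cilium, reached 42.2, 46.9 and 50.4 CPM (log2 fold change 7.70, SE 0.42, adjusted p = 1.3e-06) and DCX-EMAP 46.8, 46.1 and 38.8 CPM (log2 fold change 7.02, SE 0.26, adjusted p = 2.0e-07). iav, a TRPV channel subunit of hearing, was at 1.92, 2.49 and 0.969 CPM in amos adults and 0.05096, 0.0227 and 0.186 CPM in amos discs (log2 fold change 4.64, SE 0.72, adjusted p = 5.1e-04), with 1.202 ± 0.431 CPM in control adults, and its partner nan, at 0.522, 1.11 and 0.131 CPM, had too few reads to be tested. wtrw, a TRPA channel, rose more in amos than in the control (log2 interaction 1.18, adjusted p = 1.7e-04), and pain, another, rose in amos (log2 fold change 1.004, SE 0.085, adjusted p = 1.6e-05). Of 13 tested axonemal motility genes, the dynein arms and assembly factors of motile chordotonal cilia, 9 rose and 3 fell, 1 without adult library 2 or disc library 3. The summed level of that list was lower in adults, at 176 to 199 CPM in amos discs and 99.4 to 117 CPM in amos adults. Dhc93AB, an outer arm heavy chain, was at 8.71, 14.2 and 6.63 CPM in amos adults and 2.83, 2.73 and 2.46 CPM in discs (log2 fold change 2.21, SE 0.30, adjusted p = 2.4e-04), and control adults held 35.05 ± 3.601 CPM. Dnai2, an intermediate chain, had no read in the amos discs and 2.42, 2.51 and 2.67 CPM in the adults, at least 107-fold higher.

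Support cell and lineage genes moved in both directions. Of 18 tested, 10 rose and 7 fell, against 43.8% and 41.8% of all genes. sv, the Pax2 homolog of shaft cells, went from 6.09, 6.62 and 8.46 to 62.1, 73.8 and 64.9 CPM (log2 fold change 3.58, SE 0.16, adjusted p = 4.6e-07). Su(H), the Notch pathway factor of socket cells, went from 42.5, 41.2 and 42.5 to 66.9, 69.6 and 63.2 CPM (log2 fold change 0.99, SE 0.077, adjusted p = 9.3e-06). Sox15, a socket cell factor, went from 0.204, 0.136 and 0.626 to 37.8, 43.4 and 37.9 CPM (log2 fold change 7.25, SE 0.40, adjusted p = 1.5e-06). Control adults held 177 ± 17.9 CPM of sv, 242 ± 8.51 CPM of Su(H) and 109 ± 4.59 CPM of Sox15, with a smaller rise in amos by the interaction for Su(H) (-1.87, adjusted p = 5.2e-06) and none called for Sox15 (-0.87, adjusted p = 0.29). numb, the asymmetric division determinant, fell (log2 fold change -1.55, SE 0.10, adjusted p = 4.1e-06), more than in the control (-0.87, adjusted p = 0.003). pros, a homeobox gene of sheath cells, rose from 23.6, 7.23 and 10.2 to 88.1, 113 and 101 CPM (log2 fold change 3.22, SE 0.43, adjusted p = 2.0e-04).

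Glial genes rose, 13 of 18 tested. Gs2, glutamine synthetase, went from 55.5, 49.5 and 52.6 to 5622, 5694 and 6195 CPM (log2 fold change 7.13, SE 0.13, adjusted p = 1.3e-08). nrv2, a sodium pump subunit of glia, went from 226, 207 and 210.0 to 971, 942 and 1126 CPM (log2 fold change 2.58, SE 0.11, adjusted p = 4.3e-07). Mdr65, a transporter of the blood-brain barrier, went from 7.47, 8.003 and 3.64 to 338, 292 and 472 CPM (log2 fold change 6.19, SE 0.37, adjusted p = 2.2e-06). Inx2, a gap junction protein of epithelia and glia, fell from 1838, 1889 and 1862 to 253, 257 and 301 CPM (log2 fold change -2.45, SE 0.11, adjusted p = 4.8e-07), and Gli, gliotactin, fell too (log2 fold change -0.74, SE 0.17, adjusted p = 0.0049). The 2 glial markers repo and moody summed to 167 to 180.3 CPM in amos adults and 157 to 182 CPM in control adults. Sarcomere genes of muscle also rose, 18 of 25 tested, with Mhc at 68.6, 38.4 and 91.6 CPM in amos adults and 3.08, 3.96 and 2.34 CPM in amos discs (log2 fold change 4.74, SE 0.38, adjusted p = 1.1e-05). In the control, only 4 of 23 rose, with muscle RNA varying among its libraries. Mhc spread from 0.311 to 34.9 CPM in control adults and from 8.75 to 213 CPM in control discs.

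Cuticle genes moved in both directions. Of 100 matched genes of the Rebers and Riddiford family, which bind chitin, 42 were tested, 27 rose and 10 fell, or 16 fell without disc library 3. Cpr49Ae went from 0.204, 0.0909 and 0.0696 to 452, 372 and 342 CPM (log2 fold change 11.96, SE 0.27, adjusted p = 2.6e-08). Cpr62Bc went from 0.05096, 0.0455 and 0.0464 to 182, 114 and 91.8 CPM (log2 fold change 11.64, SE 0.42, adjusted p = 1.8e-07). In the other direction, Cpr49Ac went from 106, 72.7 and 95.04 to 0.0275, 0.159 and 0.0524 CPM (log2 fold change -9.65, SE 0.35, adjusted p = 1.7e-07). Control adults held 554 ± 51.4 CPM of Cpr49Ae, 127 ± 43.5 CPM of Cpr62Bc and 0.0392 CPM of Cpr49Ac. Cpr12A fell in amos, from 4.82, 6.18 and 6.28 to 0.1099, 0.0995 and 0.105 CPM (log2 fold change -5.42, SE 0.32, adjusted p = 2.2e-06), but rose in the control, from 5.45 to 18.3 ± 1.14 CPM (log2 interaction -7.45, adjusted p = 1.1e-06). Vajk2 and Vajk3, cuticle proteins of another family, rose from 6.52, 2.73 and 7.19 to 275, 177 and 165 CPM (log2 fold change 5.55, SE 0.41, adjusted p = 7.4e-06) and from 6.93, 0.637 and 1.18 to 341, 202 and 188 CPM (log2 fold change 6.73, SE 0.87, adjusted p = 1.8e-04). Among Tweedle genes, TwdlE (log2 fold change -5.67, SE 0.33, adjusted p = 2.0e-06) and TwdlT (log2 fold change -2.59, SE 0.39, adjusted p = 4.2e-04) fell, TwdlG rose (log2 fold change 5.91, SE 0.87, adjusted p = 3.9e-04), and TwdlX, at 5.204 ± 0.594 CPM in control adults, had at most 0.0398 CPM in an amos adult library (log2 interaction -9.93, adjusted p = 0.0023, and adjusted p = 0.059 without replicate 2 of the amos discs).

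Of 22 matched Osiris genes, which encode transmembrane proteins of cuticle-secreting cells, 7 were tested. Besides Osi8, Osi7 rose from 0.561, 0.432 and 0.928 to 7.17, 7.76 and 7.73 CPM (log2 fold change 3.88, SE 0.33, adjusted p = 1.7e-05), and Osi3 and Osi19 had no read in the amos discs and 5.03, 4.26 and 6.16 CPM and 2.61, 3.14 and 5.66 CPM in the adults, at least 217-fold and 160.2-fold higher. Osi24 and Osi2 fell, Osi24 from 7.69, 8.16 and 12.1 to 0.934, 0.736 and 0.629 CPM (log2 fold change -3.27, SE 0.30, adjusted p = 2.2e-05). Apical matrix and chitin genes moved in both directions. The zona pellucida genes neo and nyo fell from 196, 185 and 266 to 1.43, 1.23 and 1.21 CPM (log2 fold change -7.06, SE 0.21, adjusted p = 7.2e-08) and from 73.4, 72.1 and 107 to 0.2198, 0.219 and 0.498 CPM (log2 fold change -7.76, SE 0.33, adjusted p = 4.1e-07), 8 of 15 genes of that list falling and 3 rising. Cht10, a chitinase of molting, fell from 2496, 2543 and 2706 to 7.89, 7.12 and 5.92 CPM (log2 fold change -8.20, SE 0.15, adjusted p = 1.3e-08). kkv, the epidermal chitin synthase, went from 252, 301 and 258 to 24.9, 15.8 and 26.2 CPM (log2 fold change -3.27, SE 0.21, adjusted p = 3.2e-06), while Idgf3, a chitinase-like growth factor, rose (log2 fold change 5.07, SE 0.25, adjusted p = 8.6e-07). In the tanning list 13 rose and 6 fell of 20. ple, tyrosine hydroxylase, rose from 4.18, 2.52 and 5.22 to 719.6, 734 and 959 CPM (log2 fold change 7.995, SE 0.33, adjusted p = 3.5e-07). yellow-h went from 2.42, 1.27 and 1.07 to 656, 558 and 425 CPM (log2 fold change 8.77, SE 0.36, adjusted p = 3.1e-07). t (tan), which releases dopamine from its beta-alanyl conjugate, went from 0.229, 0.0455 and 0.186 to 209, 235 and 218 CPM (log2 fold change 10.82, SE 0.29, adjusted p = 5.0e-08). The rise of t was larger than in the control (log2 interaction 2.93, adjusted p = 0.0016).

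More detoxification enzymes rose than fell. Of 70 tested cytochrome P450 genes 57 rose and 8 fell, of 34 glutathione S-transferases 24 and 8, and of 23 UDP-glycosyltransferases 16 and 3, against 43.8% and 41.8% of all genes. Cyp6g1 was at 5.04, 5.37 and 4.64 CPM in discs and 4208, 4332 and 4652 CPM in adults (log2 fold change 10.11, SE 0.14, adjusted p = 9.4e-09). Cyp6w1 was at 0.739, 0.614 and 0.719 and 2006, 1980 and 2158 CPM (log2 fold change 11.86, SE 0.15, adjusted p = 9.4e-09). Ugt35B1 was at 1.503, 1.86 and 1.79 and 2198, 2128 and 2585 CPM (log2 fold change 10.72, SE 0.19, adjusted p = 1.2e-08). Control adults held 1581 ± 116 CPM of Cyp6g1 and 4298 ± 136 CPM of Cyp6w1. Cyp4e2 was at 95.6, 79.5 and 86.6 CPM in the amos discs, where the control discs held 1.77 CPM, and rose in amos (log2 fold change 4.20, SE 0.11, adjusted p = 5.0e-08) by less than in the control (log2 interaction -4.93, adjusted p = 1.2e-05). GstE4 was at 38.8, 54.8 and 22.8 CPM in amos adults and 6766 ± 242 CPM in control adults, and had no read in the amos discs, at least 1634-fold lower than the amos adults. Nuclear genes of oxidative phosphorylation rose in 68 of 69 cases with a median log2 fold change of 1.85, and SdhA went from 199.6, 227 and 216 to 1044, 1136 and 1025 CPM (log2 fold change 2.65, SE 0.094, adjusted p = 1.6e-07).

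Clock genes were present in mutant antennae. Clk, the activator of the clock, had no read in the amos discs and 22.3, 27.8 and 37.6 CPM in the adults, at least 1231-fold higher, and cry, the blue-light receptor, went from 0.612, 0.477 and 0.487 to 387, 398 and 622 CPM (log2 fold change 10.14, SE 0.32, adjusted p = 9.5e-08). tim went from 0.408, 0.637 and 0.139 to 638, 716 and 123 CPM (log2 fold change 10.59, SE 0.93, adjusted p = 1.9e-05). Adult library 3 of tim was well below the other two, and Pdp1 went from 17.2, 16.8 and 9.53 to 485, 517 and 491 CPM (log2 fold change 5.44, SE 0.24, adjusted p = 4.9e-07). In all 9 of 13 genes of the list rose, and cyc, dco and Cul3 fell.

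Genes of taste and contact chemosensation were detected as well. Of 58 matched genes of the gustatory receptor family, 48 were under 1 CPM in every amos library. Without the filter for low genes, 22 of 43 rose. With it, 15 were tested, of which 14 rose and Gr61a fell (log2 fold change -2.47, SE 0.43, adjusted p = 9.9e-04). Not all of them are taste receptors, since the list includes Gr10a and Gr28b, given above with the basiconic and the arista receptors. These averaged 17.6 and 26.3 CPM of the 66.6 CPM of the list in amos adults. Gr66a, a bitter receptor subunit, reached 6.13, 4.597 and 4.66 CPM (log2 fold change 7.52, SE 0.41, adjusted p = 1.4e-06) and Gr64f, a sugar receptor, 2.198, 2.19 and 1.41 CPM with no read in the amos discs, at least 81.4-fold higher, against 37.6 ± 2.76 CPM in control adults. Of 29 matched pickpocket sodium channel genes, 18 were under 1 CPM in every amos library. Of the 11 tested, 8 rose and 3 fell, and without the filter 15 of 26 rose. ppk25 and ppk23, which serve pheromone responses, went from 0.102, 0.0909 and 0.0232 to 45.4, 52.9 and 44.6 CPM (log2 fold change 9.65, SE 0.25, adjusted p = 4.5e-08) and from 0.127, 0.159 and 0.139 to 44.6, 26.05 and 18.02 CPM (log2 fold change 7.99, SE 0.46, adjusted p = 1.7e-06), with 4.06 and 12.2 CPM in control adults. The 6 leg and labellum markers, 3 of them pickpocket genes, summed to 70.3 to 104 CPM in amos adults and 53.9 to 65.3 CPM in control adults, and the part of other head and leg tissue in these values was not tested.

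Genes known from phototransduction also moved. Of 20 tested, 12 rose and 1 fell, while the matched photoreceptor markers stayed near 1 CPM in sum. santa-maria, a scavenger receptor of carotenoid uptake, went from 5.53, 4.75 and 5.54 to 349.8, 293 and 352 CPM (log2 fold change 6.31, SE 0.14, adjusted p = 2.7e-08). Calx, a sodium and calcium exchanger, went from 0.866, 0.455 and 0.904 to 94.7, 107 and 81.8 CPM (log2 fold change 7.33, SE 0.25, adjusted p = 1.3e-07). Rh7, an opsin, went from 0.153, 0.0227 and 0 to 11.6, 11.9 and 12.8 CPM (log2 fold change 8.01, SE 0.61, adjusted p = 8.6e-06). Axon guidance genes were balanced, 22 rising and 21 falling of 44. Fas3, an adhesion protein of epithelia and axons, fell from 642, 751 and 722 to 118, 113 and 119.8 CPM (log2 fold change -2.26, SE 0.096, adjusted p = 3.8e-07). caps, a leucine-rich repeat protein of target recognition, rose from 97.3, 103 and 106 to 125, 159 and 215 CPM (log2 fold change 1.04, SE 0.20, adjusted p = 0.0017), where the control fell from 106 to 68.1 ± 5.08 CPM (log2 interaction 1.39, adjusted p = 0.0028).

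Most genes of sensory precursor selection fell. Of 26 tested proneural and sensory precursor genes 22 fell against 41.8% of all genes, and aos, phyl and rho rose. ato, the proneural gene that selects the Ir lineages, was at 70.9, 72.3 and 101 CPM in the amos discs and 0, 0.0199 and 0.0262 CPM in the adults, with 2 reads in the adults and a ratio of disc to adult of 5104 (95% counting interval 1413 to 42150). It is also on the list of retinal determination genes, and the eye disc markers summed to 122 to 161 CPM in the amos discs. The part of eye disc tissue in the ato reads was not tested. sens, a precursor factor, went from 18.9, 23.4 and 31.1 to 0.0824, 0.0199 and 0.0524 CPM (log2 fold change -8.58, SE 0.40, adjusted p = 5.8e-07). N, Notch, went from 716, 879 and 817 to 20.7, 23.7 and 33.8 CPM (log2 fold change -4.61, SE 0.23, adjusted p = 8.2e-07). Some targets of Notch signaling fell further in amos than in control samples. E(spl)m7-HLH was at 126, 109 and 168 CPM in the discs and 0.687, 0.438 and 0.524 CPM in the adults (log2 fold change -7.62, SE 0.26, adjusted p = 1.4e-07), with 5.76 ± 0.295 CPM in control adults (log2 interaction -4.07, adjusted p = 1.9e-05), and E(spl)m3-HLH at 78.5, 75.3 and 96.96 and 4.07, 2.85 and 3.85 CPM with 23.4 ± 1.63 CPM (log2 interaction -2.75, adjusted p = 1.2e-05).

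Regulators of antennal identity changed in both directions, 8 of 28 rising and 20 falling. ss, which specifies the distal antenna, rose from 62.4, 80.8 and 82.9 to 380.0, 526 and 413 CPM (log2 fold change 2.88, SE 0.17, adjusted p = 2.4e-06). Dll, the distal appendage selector, went from 169, 221 and 192 to 286, 428 and 386 CPM (log2 fold change 1.26, SE 0.18, adjusted p = 3.0e-04). B-H1 and B-H2, paired homeobox genes, rose to 45.3, 54.05 and 40.00 CPM (log2 fold change 1.76, SE 0.13, adjusted p = 6.7e-06) and 38.9, 39.5 and 34.7 CPM (log2 fold change 1.71, SE 0.14, adjusted p = 1.2e-05). hth, the proximal and antennal selector, fell from 912, 915 and 785 to 249, 358 and 519 CPM (log2 fold change -0.87, SE 0.26, adjusted p = 0.014). In control adults ss was at 533 ± 17.9 and B-H1 at 53.5 ± 0.6295 CPM. Sp1 and btd encode related zinc finger factors of appendage growth. Sp1 fell in amos from 72.8, 87.7 and 83.5 to 15.5, 16.7 and 9.82 CPM (log2 fold change -2.21, SE 0.19, adjusted p = 1.8e-05) and rose in the control from 118 to 587 ± 15.9 CPM (log2 interaction -4.82, adjusted p = 1.1e-06). btd fell in amos from 17.2, 18.98 and 18.9 to 0.962, 0.776 and 0.472 CPM (log2 fold change -4.31, SE 0.25, adjusted p = 2.0e-06) and was at 19.1 CPM in the discs and 15.9 ± 0.708 CPM in the adults of the control (log2 interaction -4.34, adjusted p = 3.2e-06). dac and danr also had negative interactions (-1.99, adjusted p = 0.0024 and -1.51, adjusted p = 0.015).

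Patterning and growth genes fell. Of 33 morphogen and compartment genes 22 fell. ft, an atypical cadherin, fell from 569, 686 and 592 to 5.03, 3.96 and 4.37 CPM (log2 fold change -6.78, SE 0.14, adjusted p = 2.2e-08). fj, its modulator, went from 223, 266 and 228 to 2.88, 1.71 and 2.23 CPM (log2 fold change -6.40, SE 0.20, adjusted p = 9.8e-08). Of 41 DNA replication genes 39 fell and of 50 mitotic genes 49. PCNA, the sliding clamp, went from 253, 245 and 232 to 3.16, 2.91 and 2.91 CPM (log2 fold change -6.01, SE 0.096, adjusted p = 9.7e-09). CycB went from 344, 355 and 320.2 to 0.742, 0.617 and 0.7597 CPM (log2 fold change -8.58, SE 0.13, adjusted p = 9.5e-09). polo, a mitotic kinase, went from 482, 443 and 429 to 0.192, 0.239 and 0.183 CPM (log2 fold change -10.73, SE 0.14, adjusted p = 9.4e-09). The change of 26 of 41 replication genes was more positive in amos, against 14.2% of all genes. RPA1 was at 104, 95.8 and 98.6 CPM in amos adults and 42.7 ± 1.22 CPM in control adults (log2 interaction 1.56, adjusted p = 1.7e-05). Summed, the replication list was at 2955 to 3310 CPM in amos discs and at 3932, 3596 and 4925.5 CPM in control discs 1, 2 and 5. The part of such differences between discs in the interactions was not tested. Ribosomal protein genes fell in 82 of 83 cases with a median log2 fold change of -1.73, and their sum was 144020 to 147800 CPM in amos discs and 33073 to 39879 CPM in amos adults. Act5C and Act42A, the cytoplasmic actins, fell from 8571, 8229 and 9124 to 772, 781 and 790.1 CPM (log2 fold change -3.13, SE 0.098, adjusted p = 9.1e-08) and from 2193, 1894 and 2092 to 23.9, 19.6 and 22.9 CPM (log2 fold change -6.21, SE 0.14, adjusted p = 2.4e-08).

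Of 31 ecdysone response genes 21 fell and 6 rose. ImpE2, an ecdysone-inducible gene of disc eversion, went from 3354, 2941 and 4750 to 1.703, 1.43 and 1.26 CPM (log2 fold change -10.97, SE 0.30, adjusted p = 5.1e-08). ImpE1 went from 657, 669 and 1108 to 1.703, 1.73 and 1.89 CPM (log2 fold change -8.51, SE 0.30, adjusted p = 1.6e-07). The small heat shock genes Hsp23 and Hsp27, which respond to ecdysone as well as to heat, fell from 3991, 3275 and 2410 to 6.73, 4.88 and 5.71 CPM (log2 fold change -8.80, SE 0.27, adjusted p = 8.5e-08) and from 2496, 2426 and 2742 to 5.82, 5.37 and 5.76 CPM (log2 fold change -8.49, SE 0.13, adjusted p = 9.5e-09). Genes of other larval tissues were lower in adults too. Of 12 retinal determination genes 10 fell, toy from 102, 99.9 and 81.8 to 0.0824, 0.0995 and 0.0786 CPM (log2 fold change -9.69, SE 0.18, adjusted p = 1.3e-08). Of 8 fat body genes 6 fell, Lsp2 from 79.6, 68.9 and 105 to 0.0824, 0.279 and 0.0262 CPM (log2 fold change -8.86, SE 0.43, adjusted p = 7.1e-07). Of 8 hemocyte genes 6 fell. Disc library 3 held the least hemocyte RNA of the 3 mutant disc libraries.

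The 10 largest fitted rises among genes with at least 50 reads on average in the higher group were those of GstE4, CG13841, BomT2, Ir75c, CG6435, Clk, CG32551, CG4377, CG31300 and CG12998. All but CG12998 had no read in any amos disc, so the data give a lower bound for each and no order among them. The ratio of Or35a given above is larger than each of these bounds, with a counting interval that includes some of them. CG13841 reached 35.3, 26.6 and 50.6 CPM, at least 1580-fold higher, and CG31300 22.2, 20.5 and 21.9 CPM, at least 907-fold higher. BomT2, a Bomanin of the Toll immune response, reached 37.8, 25.97 and 39.98 CPM, at least 1456-fold higher, while the control adults were at 2.300 ± 0.5899 CPM. CG12998 had 1 read in the discs and 97.9, 35.04 and 78.04 CPM in the adults. The 10 largest fitted falls were those of Sgs5, Cks30A, CG3355, Sgs8, ato, Lcp4, Ocho, Sgs3, CG7606 and bora, with at most 2 reads in any adult library. Sgs3, Sgs5 and Sgs8 encode salivary glue proteins. Sgs3 was at 161, 133 and 131 CPM in the amos discs, 0.0549, 0.0199 and 0.0262 CPM in the amos adults and 16.2 CPM on average in the control discs. Cks30A, a cyclin-dependent kinase subunit, and bora, a mitotic activator, went from 106, 90.6 and 76.8 and 10.7, 10.05 and 7.398 CPM to at most 0.0275 CPM in an adult library. Ocho, of the Bearded family of Notch modulators, had no read in the adults and 10.9, 11.6 and 10.7 CPM in the discs, at least 459.9-fold higher.

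Genes that appeared anew were counted with a rule that uses no test. At least 1 CPM in each of the 3 amos adult libraries and at most 3 reads in each of the 3 amos disc libraries was met by 343 genes (2.19% of 15682), and the same rule in the control by 384 (2.45%). The limit of 3 reads was 0.0682 to 0.0764 CPM in amos discs and 0.108 to 0.112 CPM in control discs, so the genotypes were not counted at the same level. GstE4, at 6766 CPM in control adults, missed the control set with 102 to 135 reads in each control disc library. Ir31a missed the mutant set with 4, 3 and 5 reads in the amos discs, and Amt with 68, 56 and 57. Both rose by the test, so a gene outside the mutant set can still have risen. The 2 sets share 190 genes, 55.4% of the mutant set and 49.5% of the control set. Of the mutant set, 272 genes were at 1 CPM or more in every control adult library, and 41 were under 1 CPM in all of them. Of the control set, 72 genes were under 1 CPM in every amos adult library, and 20 of these are trichoid, intermediate or basiconic receptors. By group, the mutant set holds Orco, Or35a, Gr10a, Or10a, 4 of 9 coeloconic Irs, 11 of 52 Obps, 12 of 100 Rebers and Riddiford cuticle genes and 8 of 86 cytochrome P450 genes. CCAP, a peptide gene, is among those under 1 CPM in all control adults, at 9.62, 6.96 and 7.41 CPM against 0.105 ± 0.0469 CPM in control adults.

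Over all genes, the change between stages differed between genotypes for 2302 of 10319 tested (22.3%), being more positive in amos for 1470 (14.2%) and more negative for 832 (8.06%). A difference over 4-fold was found for 383 (3.71%) and 167 (1.62%). The most negative interactions were those of TwdlX, Or65a, CG15919, hec and Cpr12A, and the most positive those of Iris, CG43291, CCAP, Ugt37E1 and CG8665. CG43291, CCAP and Ugt37E1 had at most 8 reads in any control library and lost the call without replicate 2 of the control discs (adjusted p = 0.99987). Ugt37E1 also lost it without replicate 7 of the control adults or any 1 of the 6 amos libraries (adjusted p from 0.053 to 0.064). Of all genes that rose in amos samples, 56 fell in the control, and 36 genes fell in amos and rose in the control. These counts depend on single disc libraries. The discs also differed in ecdysone response genes, which summed to 6254, 8712 and 3041.5 CPM in control discs 1, 2 and 5 and to 7066 to 9734 CPM in amos discs. The part of these levels in the interactions was not tested. Without replicate 5 of the control discs there were 1159 more positive and 1250 more negative genes, and without replicate 3 of the amos discs 955 and 887. The scatter plot of both stage changes shows the list members tested in both genotypes.

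**Figure D4:**
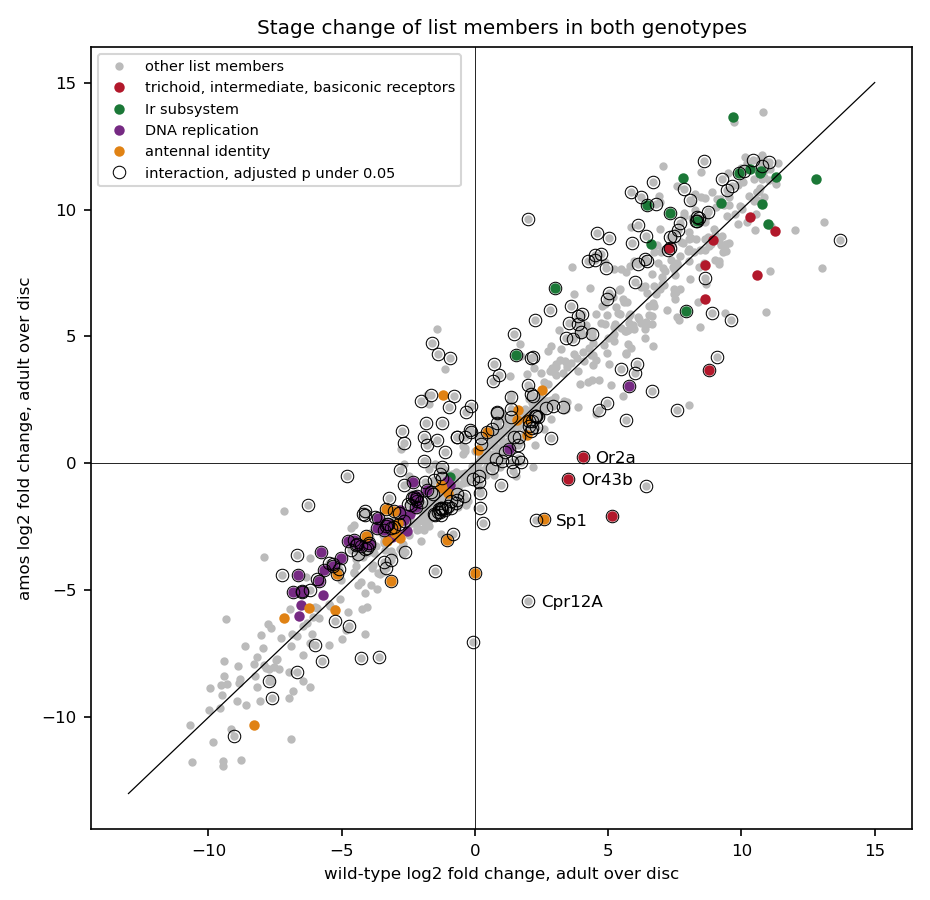
Log2 fold change from disc to adult in amos (vertical) against wild-type (horizontal) for members of the chemosensory, patterning, replication and other gene lists tested in both genotypes. Grey points are other list members, colored points mark 4 groups, black rings mark an interaction with an adjusted p under 0.05, and the line is equality. Sp1 and Cpr12A lie in the quadrant of a fall in amos and a rise in wild-type.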

How the data were processed

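Stranded mRNA libraries of adult antennae and larval antennal discs were sequenced. The authors aligned the trimmed reads with TopHat2, counted reads per gene with HTSeq and deposited raw counts for 15682 genes without normalization. The submitters' notes and the methods of the study differ in tool versions and genome build, and whether counting used strand is not given in the sources used here, so overlapping and antisense genes are uncertain. Between 17.9% and 31.5% of the reads in the amos libraries were on the 5 lines that name no gene, and these were left out. Replicates are separate samples by their labels, nothing says that they came from separate cultures, and p-values measure only the spread between them. All replicate pairs differed beyond sampling noise.

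Symbols matched 15002 genes in the annotation of Ensembl release 115. 53 gene lists were used, and 56 entries that could not be matched to an identifier were not analysed here. The lists, the rule for named genes and the samples were chosen with earlier results of these data known, and list entries that a synonym had tied to another gene were removed. Named genes are the 10 largest rises and falls and the 5 largest interactions each way with no overlap between groups and at least 50 counts in the higher group, and up to 5 members per list by level and by change, or all of a list of at most 12. Further members were named after their values were seen, and single interactions are given where no omitted library ended the call or where the library is named.

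Low genes were removed by filterByExpr and libraries scaled by TMM in edgeR 4.0.16 (R 4.3.3). Its quasi-likelihood test, called at a Benjamini-Hochberg adjusted p of 0.05, was run on the 6 amos samples, the 6 control samples and, for the interaction, all 12. Fold changes are log2 with their standard error (SE), every adjusted p given comes from these fits, and ratios of few reads carry a 95% exact binomial interval. Intervals and floors cover counting error only, since PCR copies are not independent molecules. Alternatives were DESeq2 1.42.0, upper quartile and total count scaling, other filters, 1 fit over 12 samples, a replicate block and each sample left out in turn. The fits were checked on simulated counts. No sequence was used here.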

Additional observations from a re-analysis of the deposited data

Results flagged for a closer look

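The change from disc to adult differed between amos and control by the interaction test of edgeR for 1470 genes with a more positive and 832 with a more negative change in amos. The genes named in the text or by the rule for the largest interactions are given here as values on the log2 scale, with 3 libraries per group. The log2 interaction was negative for these genes: TwdlX -9.93, Or65a -9.87, CG15919 -9.42, hec -8.01, Cpr12A -7.45, Or67a -7.17, unpg -6.63, Or47a -6.46, Or7a -5.99, Or85b -5.17, Cyp4e2 -4.93, Sp1 -4.82, btd -4.34, Or43b -4.16, E(spl)m7-HLH -4.07, Or2a -3.82, TkR86C -3.82, E(spl)m3-HLH -2.75, ATP8B -2.61, Snmp2 -2.20, dac -1.99, Ir40a -1.94, Su(H) -1.87, danr -1.51, pdm3 -0.92, Oseg4 -0.89, numb -0.87, elav -0.86 and inv -0.80. It was positive for these genes: Iris 11.72, CG43291 10.40, CCAP 9.60, Ugt37E1 8.93, CG8665 8.14, Obp56e 4.74, Ir41a 3.86, Ir31a 3.69, Obp56a 3.59, Obp18a 3.36, t 2.93, Ir76a 2.71, Vmat 2.50, Ir84a 2.46, a10 1.70, RPA1 1.56, IFT52 1.47, Ir25a 1.47, Est-6 1.39, caps 1.39, Ir76b 1.22, wtrw 1.18, Os-C 1.14, Snmp1 0.89 and Klp68D 0.66. Genes with no read in a group have unstable fitted sizes. Groups of 3 libraries were not tested for outlying samples.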

How the results depend on the processing

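Of 9 counts that answer a comparison, 6 stayed within 1.5 times under every alternative. With the threshold at 2-fold, 2850 genes fell in amos. With each library left out, genes with a more positive change in amos numbered 955 to 1596 and with a more negative one 559 to 1250, the lowest of the first without replicate 3 of the amos discs and the highest of the second without replicate 5 of the control discs. Interactions were computed for 58 single genes, and those of Fer1, acj6, Sox15 and Jhedup were not called in the main fit. Of the called ones, 25 lost the call under at least 1 alternative, the replicate block included. Same-numbered amos samples deviated together with correlations of 0.114, 0.03598 and 0.0354, each adult sample correlating best with its own number, and the numbers were not read as pairs. With the replicate block, 4379 genes rose in amos, and the interaction was called for 618 and 427 genes. The block ended the interaction call of IFT52, Ir25a, Ir40a, Ir76a, Ir76b, Ir84a, Klp68D, Obp18a, Or47a, Or85b, Oseg4, Snmp1, caps, dac, elav, t, hec, Iris, CG43291, CCAP and Ugt37E1. Among the control replicates, only replicate 5 has both stages. The control change between stages in the block fit therefore rests on 1 adult and 1 disc library. For that reason the interaction counts and ended calls of the block fit cannot decide whether an interaction holds over all 12 libraries. Total count scaling turned the sign of Or2a (-0.070) and pdm3 (-0.22), neither past the test, and pdm3 ranged from -0.011 to 0.19 with each library left out. The cause was not tested. Discs hold few reads of adult genes, which limits the size of their rises.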

Other observations

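The mitochondrial transcript mt:CoII was at 2.58, 23.3 and 2.72 CPM in amos adults and 2.85, 1.23 and 1.44 CPM in amos discs, against 4064 ± 455 CPM in control adults and 1897 CPM in control discs. It is 1 of 37 matched genes of the mitochondrial genome, was chosen after its values were seen, and is given as values only.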
